A study of Homo sapiens with 12 samples.

Results

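The genes described here are 9 rows of a gene count table of JEKO-1 cells that belong to the immunoglobulin lambda light chain: the joining segments IGLJ1, IGLJ2 and IGLJ3, the constant genes IGLC1, IGLC2, IGLC3 and IGLC7, and the lambda-like genes IGLL5 and IGLL1. They are 9 of 64253 rows in the table, and all 9 were among the 19460 rows tested. They had been picked by name, on primary chromosomes, because their counts fell with salicylate while kappa light chain counts did not. Their salicylate differences are therefore given as description, without a test.

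JEKO-1 is a human mantle cell lymphoma line, a cancer of mature B cells. The study put these cells for 48 h into one of 4 conditions, each with 3 libraries. They were KPT-330 together with choline salicylate (KPT-330+CS), KPT-330 alone, choline salicylate alone (CS), and the solvent DMSO as control. KPT-330, also called selinexor, inhibits the nuclear export receptor XPO1, and choline salicylate is a salicylate salt. The sources used here give neither the concentrations nor whether libraries within a group were separate cultures, so p-values measure only the spread between these libraries. All groups are the same line, without a genetic change between them.

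An antibody light chain is either kappa or lambda. A light chain gene is assembled when a variable segment is cut and joined to a joining segment, and the RNA is then spliced to a constant exon. The human lambda locus carries joining and constant genes as repeated pairs, each J a short way before its C, and B cells usually try the kappa locus first. Before V-to-J joining, unrearranged loci can give germline transcripts that run through J and C. IGLL1 encodes lambda5, which pairs with VPREB1 as the surrogate light chain of the pre-B cell receptor. IGLL5 is a lambda5-like gene inside the lambda locus that uses the J1 and C1 exons.

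The joining segments are printed because they show what marks a J that has not been joined. Each line gives the hg38 reference sequence on the plus strand, from the recombination signal through the joining segment. Capitals mark the nonamer (first) and the heptamer (second), the sites bound and cut by the RAG recombinase, and the 38 bases after the heptamer are the J segment. IGLJ1 lies at chr22:22893753-22893818, IGLJ2 at chr22:22899590-22899655 and IGLJ3 at chr22:22904960-22905025.
IGLJ1: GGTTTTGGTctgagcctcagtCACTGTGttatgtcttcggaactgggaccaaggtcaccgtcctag
IGLJ2: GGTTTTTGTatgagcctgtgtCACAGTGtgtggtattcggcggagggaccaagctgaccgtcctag
IGLJ3: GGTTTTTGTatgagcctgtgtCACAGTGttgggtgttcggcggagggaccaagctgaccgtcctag
These are reference sequences and not those of the cells. A spacer of 12 bases separates the signals in all 3. IGLJ2 and IGLJ3 share their signals letter for letter and are 92.1% identical in the segment, while IGLJ1 is 73.7% identical to IGLJ2 and 76.3% to IGLJ3.

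The constant exons are printed because they show how alike the counted rows are. The lines hold the first 120 bases of IGLC1 (chr22:22895375-22895494), IGLC2 (chr22:22900976-22901095), IGLC3 (chr22:22906342-22906461) and IGLC7 (chr22:22922594-22922713), hg38, plus strand. Capitals mark positions at which the 4 exons are not all alike.
IGLC1: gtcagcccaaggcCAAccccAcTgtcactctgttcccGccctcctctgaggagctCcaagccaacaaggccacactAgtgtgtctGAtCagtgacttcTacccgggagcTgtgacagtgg
IGLC2: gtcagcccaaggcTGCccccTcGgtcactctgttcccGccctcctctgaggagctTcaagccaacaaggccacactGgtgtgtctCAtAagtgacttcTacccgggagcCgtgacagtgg
IGLC3: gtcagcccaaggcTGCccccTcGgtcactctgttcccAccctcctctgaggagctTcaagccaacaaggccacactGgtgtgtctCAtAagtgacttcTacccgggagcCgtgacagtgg
IGLC7: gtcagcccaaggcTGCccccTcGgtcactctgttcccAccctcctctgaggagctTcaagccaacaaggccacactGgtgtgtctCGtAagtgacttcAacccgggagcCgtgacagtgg
Over 320 aligned bases IGLC2 and IGLC3 are 99.1% identical, and the other pairs lie between 93.8% and 96.2%. How reads that match more than 1 of these exons were counted is not given, so the split of reads among them, above all between IGLC2 and IGLC3, is uncertain.

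The rows also overlap in place. The table's IGLL5 row (ENSG00000254709) spans 22734620 to 22896107 of chromosome 22, plus strand. In the GENCODE 44 annotation of hg38 its exons hold 100% of the 460 bases of IGLC1 (ENSG00000211675, 22895375 to 22895834) and 96.1% of the 127 bases of IGLJ1 (ENSG00000211674, 22893692 to 22893818). No base of the other lambda J or C rows lies in IGLL5 exons. IGLL5, IGLJ1 and IGLC1 are thus not independent rows, and IGLL5 is read with that in mind throughout. IGLL1 (ENSG00000128322, 23573125 to 23580308, minus strand) lies apart, downstream of the cluster.

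The libraries held 35325563 to 59490178 counts each. Summed B cell markers were high in every library (1780 to 2560 CPM over 8 genes). Most of this was MS4A1 (group means of 1140 to 1780 CPM), while CR2 and FCER2 averaged at most 0.0379 and 0.724 CPM in any group. Plasma cell markers summed to 375 to 489 CPM and myeloid markers to 1.52 to 4.15 CPM. T cell markers summed to 0.537 to 4 CPM and erythroid markers to at most 0.0603 CPM. The sums match a B lineage label but do not identify the line. Libraries of a group differed in how counts depended on the GC content of genes. The slope, in log2 units per 10 GC points, lay between -0.157 and 0.133 in KPT-330+CS, between 0.202 and 0.236 in KPT-330, between -0.238 and 0.063 in CS, and between -0.327 and 0.091 in DMSO. The members are GC rich, at 57.1% to 63.8%, and values that bear on this stand beside the results. Levels are in CPM, a count divided by the TMM-adjusted library size, unless a length is named.

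Most lambda signal was in the row of IGLC1 and the rows that overlap it. Per kilobase of the length given in the table (RPKM), IGLC1 was highest in each group, with 84.3 ± 9.75 in KPT-330+CS, 370 ± 26.2 in KPT-330, 95.6 ± 21.6 in CS and 249 ± 71.6 in DMSO (SD, n = 3). In DMSO the order after it was IGLJ1 at 134 ± 28.1, IGLL5 at 77.1 ± 18.4, IGLC2 at 52.7 ± 18.7, IGLJ3 at 40.4 ± 11.1, IGLC3 at 35.7 ± 15.9, IGLJ2 at 33.4 ± 12.7 and IGLC7 at 23 ± 10.7 RPKM. From IGLC2 to IGLC7, each neighbour differed from the next by less than the larger of their SDs. IGLL1 was last, at 0.0227 ± 0.0393 RPKM. The J rows are short, so reads counted there extend past them and their RPKM overstates their level against the constant rows.

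Light chain reads were mainly kappa. IGKC, the kappa constant gene, averaged 1440, 1700, 1540 and 1630 CPM in KPT-330+CS, KPT-330, CS and DMSO, and IGKV3-20, the kappa variable row with most reads, had 1820 to 2350 CPM. Of 75 lambda variable rows on chromosome 22, 39 had no read in any library and 14 were tested. The highest, IGLV6-57, reached 16.4 CPM in any library, and all lambda variable rows together summed to 13.2 to 31.9 CPM. The summed lambda variable rows had 31.9, 28.9 and 27.7 CPM in KPT-330+CS, 27.7, 24.8 and 27.5 CPM in KPT-330, 15.9, 17.5 and 18.2 CPM in CS, and 18.6, 16.1 and 13.2 CPM in DMSO. The 4 lambda constant genes together averaged 46.4, 247, 67 and 166 CPM in the same order of groups, so the gap between V and C was narrowest with both drugs. Whether any lambda allele was rearranged cannot be read from these counts.

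**Figure D1:**
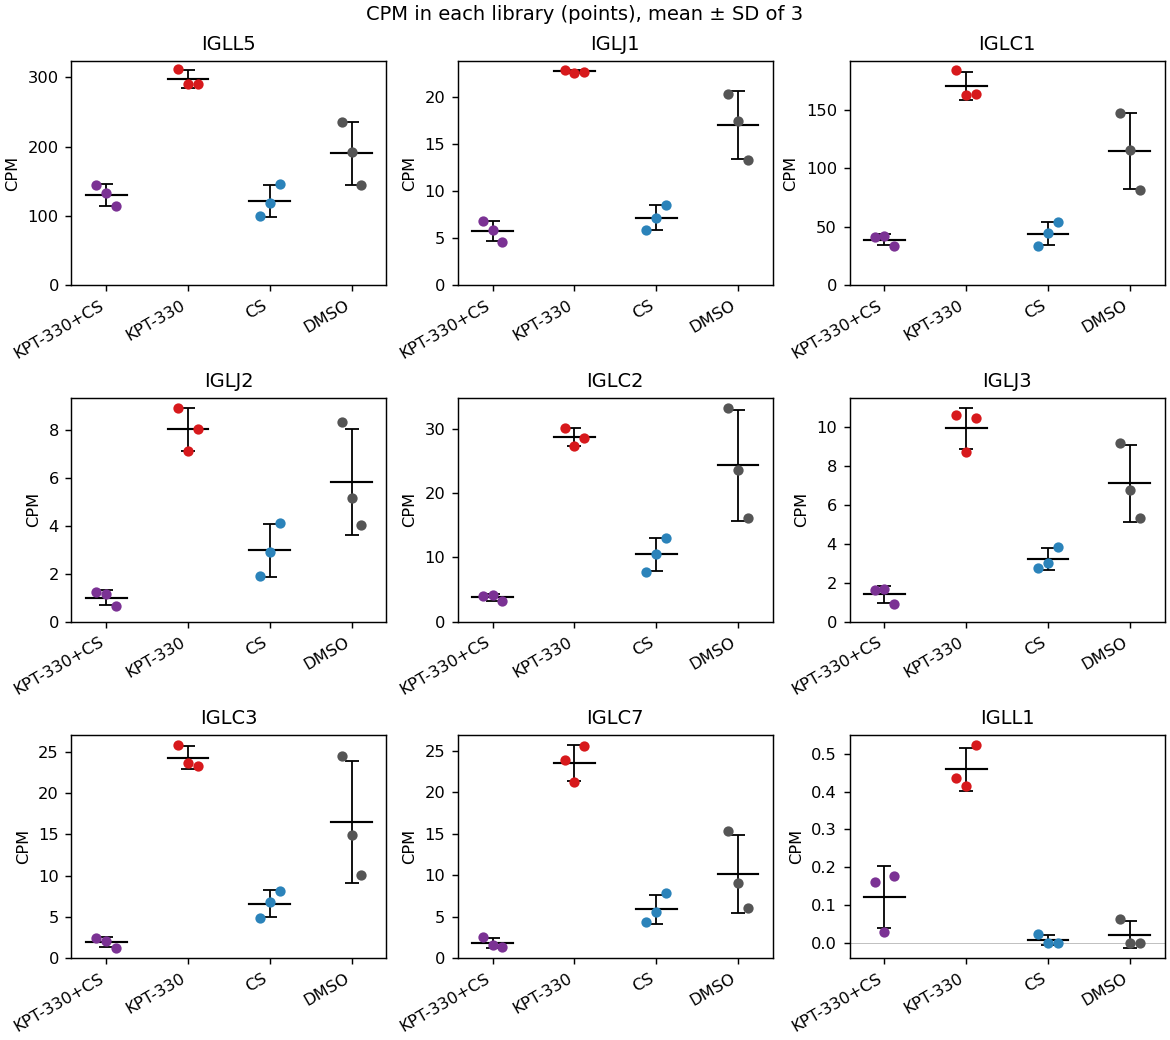
Level of each of the 9 genes in CPM (vertical axes, each panel on its own scale) in the 3 libraries of KPT-330+CS, KPT-330, CS and DMSO. Points are libraries, the long bar is the mean and the whiskers are 1 SD. KPT-330 is highest in mean in each panel, and in the 8 genes of the lambda cluster both salicylate groups lie below it.

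In KPT-330 against DMSO, 3 of the 8 genes of the J and C cluster were called higher. With IGLL1, 4 of the 9 genes were called higher and 0 lower (also 0 lower at an unadjusted p under 0.05, and 0 with DESeq2). At the same threshold, an adjusted p of 0.05 or less by edgeR (quasi-likelihood F-test, p-values adjusted by Benjamini-Hochberg over all tested genes), 48.5% of all tested genes were called, with 24.7% higher and 23.8% lower. IGLL1 passed the filter on low counts only through its KPT-330 libraries, so it had to differ here, and its call supports nothing. The median log2 fold change was 0.56 over the 9 genes and 0.04 over all tested genes, and since IGLL1 lay at the top its size did not set it. These libraries also entered the salicylate comparisons by which the genes had been picked. The cluster genes called were IGLL5, IGLC1 and IGLC7. Since the IGLL5 row holds IGLC1, these are not 3 separate signals. The share of the 9 genes called in either direction lay near that of all tested genes, so the count is not read as a result about them.

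IGLC7, the last constant gene of the cluster (ENSG00000211685, 22922594 to 22923034), had 23.8, 21.2 and 25.5 CPM in the KPT-330 libraries, against 15.3, 9.1 and 6.04 CPM in DMSO replicates 1, 2 and 3. The groups did not overlap, and DMSO spread more widely than KPT-330. Its log2 fold change was 1.21 ± 0.29 (SE; adjusted p = 0.0039), and it passed in all 22 alternative analyses, between 0.83 and 1.63. IGLC1 had 184, 163 and 164 CPM in KPT-330, against 147, 116 and 81.1 CPM in DMSO. Every KPT-330 library lay above every DMSO library, the nearest pair being 163 and 147 CPM. The log2 fold change of IGLC1 was 0.57 ± 0.19 (adjusted p = 0.0222). Its call was lost in 6 of 22 alternatives, among them those without KPT-330 replicate 1 (0.51, adjusted p = 0.0751), without CS replicate 2 (0.57, adjusted p = 0.0562), without DMSO replicate 2 (0.58, adjusted p = 0.0572) and without DMSO replicate 3 (0.38, adjusted p = 0.112).

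IGLL5 had 313, 290 and 290 CPM in KPT-330, against 235, 193 and 144 CPM in DMSO, without overlap. Its log2 fold change was 0.64 ± 0.16 (adjusted p = 0.00467), and it passed in all 22 alternatives, between 0.27 and 0.82. Since the IGLL5 row contains IGLC1 and IGLJ1, a remainder was formed by taking their counts from its own, a step chosen after the values were seen and not tested. The remainder was 106, 105 and 104 CPM in KPT-330, against 67.7, 59.7 and 49.7 CPM in DMSO. It was higher in every KPT-330 library than in any DMSO library. The table's IGLL5 row is also longer (2472 bases) than the GENCODE 44 exons used for the overlap (1339 bases), so the remainder can hold reads from outside those exons. It would equal the reads of IGLL5's own exons only if every IGLC1 and IGLJ1 read was also counted for IGLL5, which the sources used here do not say.

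IGLL1, the lambda5 gene, was close to silent. It had 23, 21 and 30 reads in the KPT-330 libraries, against 3, 0 and 0 reads in DMSO. The groups did not overlap, and 74 against 3 reads is a depth-scaled ratio of 20.1, with a 95% exact interval of 6.63 to 99.9 that covers counting error only. Its test is not given, for the reason above. VPREB1, its partner in the surrogate light chain, also rose, to 1.79 CPM in KPT-330, against 1.1 CPM in DMSO (log2 fold change 0.70 ± 0.20, adjusted p = 0.0121). The call of VPREB1 was lost without KPT-330 replicate 2 (0.60, adjusted p = 0.0528) and when counts were corrected for GC over all libraries (0.39, adjusted p = 0.0936).

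The other 5 genes were not called in this comparison, with log2 fold changes of 0.42 ± 0.17 for IGLJ1 (adjusted p = 0.054), 0.46 ± 0.28 for IGLJ2 (adjusted p = 0.197), 0.24 ± 0.22 for IGLC2 (adjusted p = 0.393), 0.48 ± 0.21 for IGLJ3 (adjusted p = 0.0782) and 0.56 ± 0.27 for IGLC3 (adjusted p = 0.107). DMSO replicate 1 was the highest DMSO library in all of them. IGLC2 had 30.2, 27.3 and 28.6 CPM in KPT-330, against 33.3, 23.7 and 16.1 CPM in DMSO, and IGLC3 had 25.9, 23.7 and 23.3 CPM in KPT-330, against 24.5, 14.9 and 10 CPM in DMSO. In both, DMSO replicate 1 lay within or above the KPT-330 libraries and the other DMSO libraries below them. Without DMSO replicate 1, 8 of the 9 genes were called higher. Of 19954 tested genes 5361 were called higher then, and 52.1% were called in either direction.

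GC dependence moved with these values. In DMSO all 8 genes of the cluster rose with the library's GC slope: replicate 3 had the lowest slope and the lowest level of each, and replicate 1 the highest. The same held in CS, where replicate 1 was lowest. When counts were corrected for GC content over all libraries, a step added after the data were seen, IGLL5 (0.27) and IGLC7 (0.83) kept their calls, IGLC1 lost its call (0.27, adjusted p = 0.0713), and IGLJ1 turned to -0.17 (adjusted p = 0.0459). IGLJ2 and IGLC2 also turned sign, to -0.05 and -0.01, and IGLJ3 stood at 0.00. With this correction only IGLJ1 of these 4 rows was called in the other direction, while IGLJ2, IGLC2 and IGLJ3 stood near 0. The correction itself removes any part of the difference between groups that follows GC content.

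**Figure D2:**
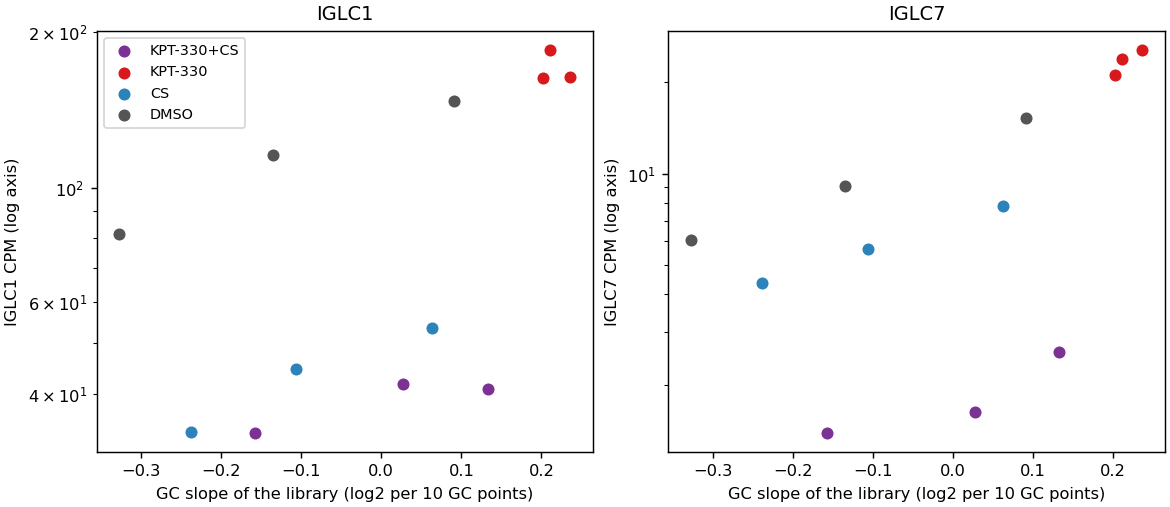
IGLC1 (left) and IGLC7 (right) in CPM on a log axis against the GC slope of each library (horizontal axis, log2 units per 10 GC points), with 1 point per library and colours for the 4 groups. DMSO and CS points climb from left to right, and in the right panel all KPT-330+CS points lie below all others.

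With KPT-330 added to salicylate, 5 of the 9 genes were called lower and 1 higher, compared with CS alone. Both groups hold salicylate, but their libraries also entered the comparisons by which the genes had been picked, and low values with both drugs favoured the choice, so these calls are not independent of it. Of all tested genes 47.8% were called in this comparison, 21.7% lower and 26.1% higher. The median log2 fold change was -1.22 over the 9 genes and 0.04 over all tested genes. The genes that fell were those of the J2 to C7 stretch: IGLJ2, IGLC2, IGLJ3, IGLC3 and IGLC7. All 5 passed in all 22 alternatives run. The gene called higher was IGLL1, which had passed the filter on low counts only through its KPT-330 libraries. Its call is not read as a result.

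IGLC3 (ENSG00000211679, 22906342 to 22906803) had 2.45, 2.16 and 1.29 CPM in KPT-330+CS, against 4.9, 6.8 and 8.14 CPM in CS. Its log2 fold change was -1.77 ± 0.31 (adjusted p = 0.000419). IGLC2 (ENSG00000211677, 22900976 to 22901437) had 4.02, 4.21 and 3.14 CPM in KPT-330+CS, against 7.8, 10.5 and 13 CPM in CS, a log2 fold change of -1.47 ± 0.24 (adjusted p = 0.000217). In both, every library with both drugs lay below every CS library. IGLC7 had 2.57, 1.63 and 1.4 CPM in KPT-330+CS, against 4.35, 5.62 and 7.81 CPM in CS, and fell by 1.67 ± 0.33 on the log2 scale (adjusted p = 0.000906). KPT-330 alone had raised this gene, so its direction differed between the presence and absence of salicylate. That difference itself was not tested, and the libraries behind it had entered the choice of genes.

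The joining segments beside them fell too. IGLJ2 (ENSG00000211676, 22899481 to 22899655) had 1.23, 1.15 and 0.636 CPM in KPT-330+CS, against 1.91, 2.91 and 4.14 CPM in CS (log2 fold change -1.61 ± 0.34, adjusted p = 0.0015). IGLJ3 (ENSG00000211678, 22904850 to 22905025) had 1.63, 1.68 and 0.901 CPM in KPT-330+CS, against 2.78, 3 and 3.85 CPM in CS (-1.22 ± 0.25, adjusted p = 0.00121). The libraries did not overlap in either. Fewer cells with a transcript and less RNA per cell cannot be told apart in such bulk samples.

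The J1 and C1 rows and IGLL5 were not called. IGLC1 had 40.9, 41.8 and 33.6 CPM in KPT-330+CS, against 33.7, 44.7 and 53.5 CPM in CS, and the groups overlapped. Its log2 fold change was -0.18 ± 0.19 (adjusted p = 0.453). IGLJ1 had 6.78, 5.89 and 4.61 CPM in KPT-330+CS, against 5.8, 7.15 and 8.52 CPM in CS (-0.32 ± 0.18, adjusted p = 0.156). IGLJ1 passed as lower in 3 alternatives, those that corrected for GC or left out the libraries of lowest GC slope. IGLL5 had 145, 133 and 114 CPM in KPT-330+CS, against 99.8, 119 and 146 CPM in CS (0.10 ± 0.16, adjusted p = 0.627), and its remainder after IGLC1 and IGLJ1 was 97.2, 85.6 and 75.4 CPM in KPT-330+CS, against 60.3, 66.9 and 84 CPM in CS. Both overlapped between the groups.

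IGLL1 moved the other way. It had 8, 1 and 10 reads in KPT-330+CS, against 1, 0 and 0 reads in CS, a ratio of 19.8 for 19 against 1 reads, with a 95% exact interval of 3.15 to 824. The fitted log2 fold change was 3.83 ± 1.10 (adjusted p = 0.0112). Both groups were too low to pass the filter on low counts, which the gene passed only through its KPT-330 libraries. Nothing is therefore read from this call. The lowest library with both drugs and the highest with CS each held 1 read.

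**Figure D3:**
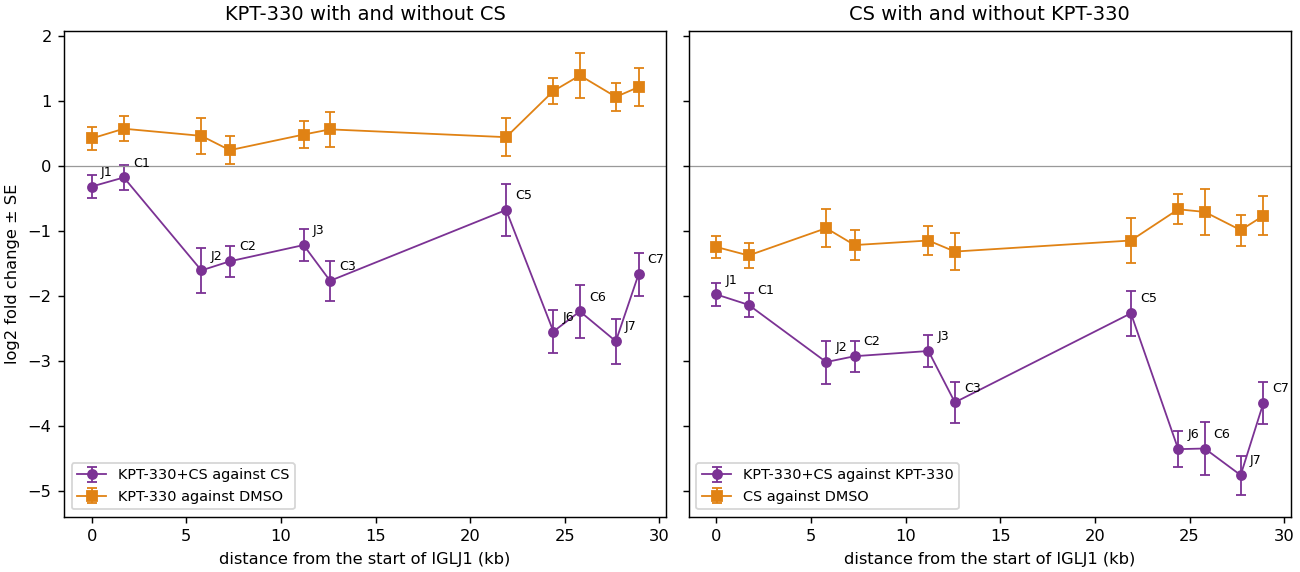
Log2 fold change ± SE (vertical axis) of each tested J and C row against the distance of its start from that of IGLJ1 (horizontal axis, kb), for KPT-330 with and without CS (left) and CS with and without KPT-330 (right). On the left, J1 and C1 lie near 0 in KPT-330+CS against CS while the rows from J2 on lie lower, with C5 at -0.68 between.

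Rows of the same cluster outside the 9 genes gave a further 4 tested values. IGLC6 and IGLC5 are annotated as constant pseudogenes, and IGLJ6 and IGLJ7 as joining segments. In KPT-330 against DMSO, 3 of these 4 were called higher: IGLJ6 at 1.15 ± 0.20 (adjusted p = 0.000391), IGLC6 at 1.39 ± 0.34 (adjusted p = 0.00454) and IGLJ7 at 1.06 ± 0.21 (adjusted p = 0.00103). Against CS, KPT-330+CS had the same 3 lower, at -2.55 ± 0.33, -2.24 ± 0.41 and -2.70 ± 0.35. Of all tested genes 24.7% were called higher in KPT-330 against DMSO and 21.7% lower in KPT-330+CS against CS. IGLC5 was called in neither, with 0.44 ± 0.29 and -0.68 ± 0.40. IGLC6 had 1.33, 1.23 and 0.53 CPM in KPT-330+CS, 19.8, 20.8 and 21.1 CPM in KPT-330, 2.78, 4.94 and 6.53 CPM in CS, and 12.1, 6.85 and 4.41 CPM in DMSO. IGLJ4, IGLC4 and IGLJ5 did not pass the filter on low counts, with at most 18 reads over any group.

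The salicylate differences, which chose the genes, were as follows. In CS against DMSO the log2 fold changes were -0.65 for IGLL5, -1.25 for IGLJ1, -1.38 for IGLC1, -0.96 for IGLJ2, -1.22 for IGLC2, -1.15 for IGLJ3, -1.32 for IGLC3 and -0.77 for IGLC7. IGLL1 had 1 read over the CS libraries and 3 over the DMSO libraries, not above the floor of 3 counts, and no fold is given for it. In KPT-330+CS against KPT-330 they were -1.19, -1.98, -2.14, -3.02, -2.93, -2.85, -3.64 and -3.65 in the same order of genes, and -1.81 for IGLL1, with 19 reads in KPT-330+CS and 74 in KPT-330. Of the 9 genes 6 were lower at the threshold without KPT-330 and 9 with it, beside 5.13% and 17.9% of all tested genes. Nothing is read from these counts, since they follow from the choice.

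The size of that fall varied along the cluster. With KPT-330 present, among the 8 cluster genes of the 9, it was smallest in IGLL5 (2.28-fold lower in KPT-330+CS than in KPT-330), IGLJ1 (3.95-fold) and IGLC1 (4.39-fold), and largest in IGLC3 (12.4-fold) and IGLC7 (12.6-fold). Of the further rows, IGLJ7 (27-fold), IGLJ6 (20.6-fold) and IGLC6 (20.4-fold) fell more, while IGLC5 (4.82-fold) fell less than IGLC3 and IGLC7. In KPT-330+CS these further rows held few reads, 19, 12, 142 and 36 in the same order. The levels of IGLC3 were 1.97 ± 0.606 CPM in KPT-330+CS and 24.3 ± 1.37 CPM in KPT-330 (SD, n = 3). Without KPT-330, the falls in the 7 J and C rows lay between 1.71-fold for IGLC7 and 2.6-fold for IGLC1. The remainder of IGLL5 after IGLC1 and IGLJ1 stood at 86.1 ± 10.9 CPM in KPT-330+CS and 105 ± 1.14 CPM in KPT-330, and at 70.4 ± 12.2 CPM in CS and 59 ± 9 CPM in DMSO. In CS its libraries, at 60.3, 66.9 and 84 CPM, overlapped those of DMSO, at 67.7, 59.7 and 49.7 CPM, unlike IGLC1 itself at 44 ± 9.92 CPM in CS and 115 ± 32.9 CPM in DMSO. The remainder made up 65.9% ± 1.49 of the IGLL5 row in KPT-330+CS, 35.3% ± 1.24 in KPT-330, 58.1% ± 2.11 in CS and 31.4% ± 2.88 in DMSO.

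**Figure D4:**
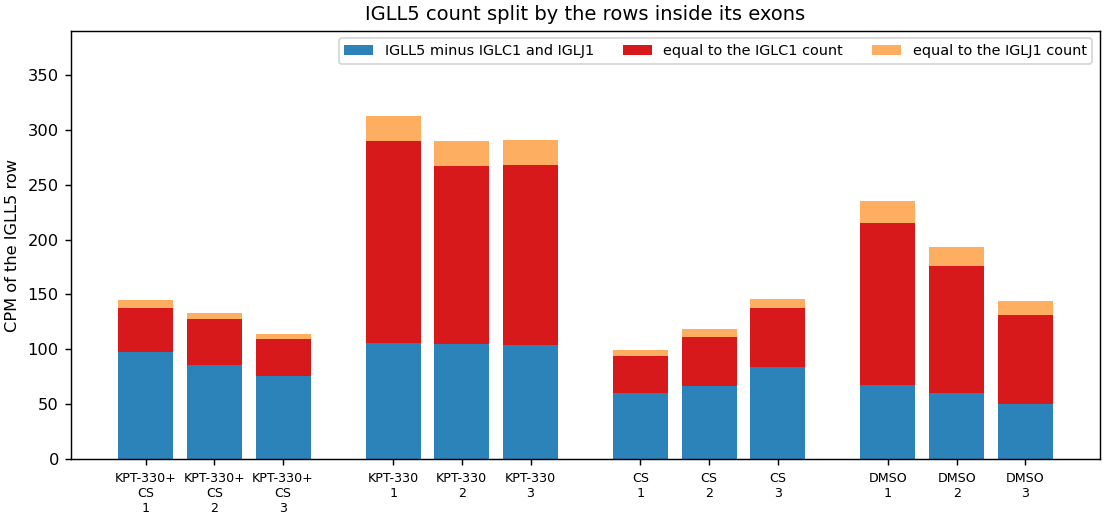
The IGLL5 row in CPM (vertical axis) for each of the 12 libraries, split into an amount equal to the IGLC1 count, an amount equal to the IGLJ1 count, and what is left. The part left over lies between 49.7 and 106 CPM, while the IGLC1 part is small in both groups with CS.

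Set against kappa, the lambda constant reads (IGLC1, IGLC2, IGLC3 and IGLC7 together) were 3.36%, 3.4% and 2.88% of the IGKC reads in KPT-330+CS and 14.7%, 14.9% and 14% in KPT-330. They were 3.52%, 4.33% and 5.11% in CS and 12.5%, 9.85% and 7.78% in DMSO. A ratio within a library does not depend on how libraries are scaled. The salicylate groups lay below the others without overlap, as the choice of genes fixed.

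Within the lambda constant reads, IGLC1 took 81.9%, 83.9% and 85.2% in KPT-330+CS, against 66.4%, 66.1% and 64.9% in CS. Its share was 69.7%, 69.2% and 67.9% in KPT-330 and 66.8%, 70.8% and 71.6% in DMSO. The libraries with both drugs lay above all others, which took 64.9% to 71.6%, and the CS libraries lay below all others by a small margin, with 66.4% in CS and 66.8% in DMSO as the nearest pair. In the comparison of KPT-330+CS with CS, the exact permutation test on 3 against 3 libraries cannot give a two-sided p below 0.1, and none is given.

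**Figure D5:**
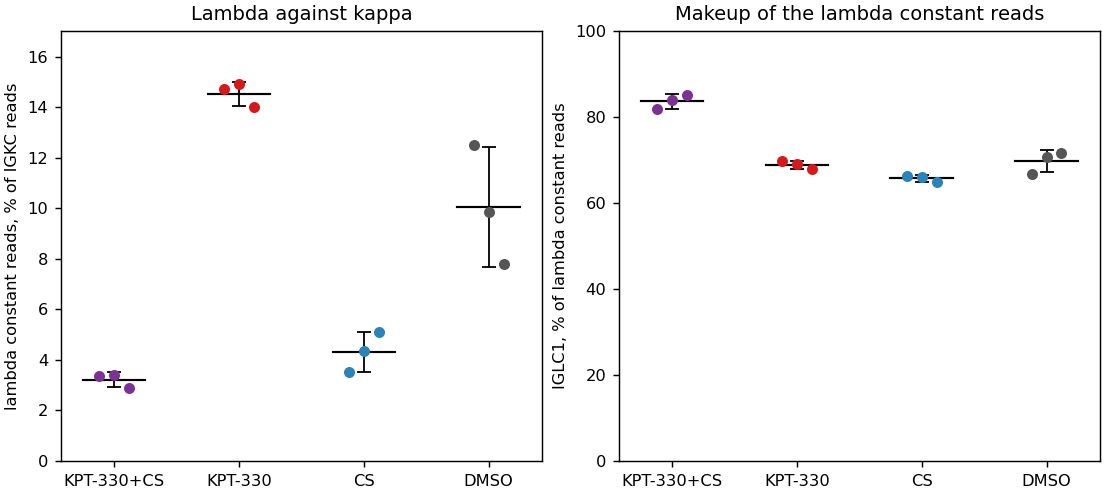
Left, reads of the 4 lambda constant genes as a percentage of IGKC reads; right, reads of IGLC1 as a percentage of those of the 4 lambda constant genes. Points are the 3 libraries of KPT-330+CS, KPT-330, CS and DMSO, with mean and SD. On the right the KPT-330+CS libraries, at 81.9% to 85.2%, lie above all others.

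Kappa J and C genes moved little beside them. In KPT-330 against DMSO, 0 of 6 were higher (0 also at an unadjusted p under 0.05 and with DESeq2) and 1 lower, beside 24.7% and 23.8% of all tested genes. That was IGKJ1 at -0.29 ± 0.06 (adjusted p = 0.00255; not called with library size alone or GC correction within groups), while IGKC stood at 0.06 ± 0.08 (adjusted p = 0.522). With CS in both groups 0 of the 6 were called by edgeR, 1 at an unadjusted p under 0.05 and 1 with DESeq2, both times IGKJ2 (-0.19, adjusted p = 0.0426 with DESeq2), and IGKC stood at -0.10 ± 0.08 (adjusted p = 0.333). Of all tested genes 47.8% were called by edgeR in this comparison. Kappa genes were part of the choice in the salicylate comparisons and get no test there. As a description, IGKC differed by -0.24 and IGKJ2 by -0.26 in KPT-330+CS against KPT-330, on the log2 scale, and the other 4 kappa rows by 0.14 to 0.22. Of all tested genes 37.6% were called in this comparison, and nothing is read from these kappa values.

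Among 8 tested heavy chain constant genes, 1 was higher in KPT-330 against DMSO and 2 were lower in KPT-330+CS against CS. Of all tested genes 24.7% were called higher in the former comparison and 21.7% lower in the latter. The gene called higher was IGHE, that of IgE, with 67 reads in KPT-330 and 5 in DMSO. Like IGLL1, it passed the filter on low counts only through its KPT-330 libraries. Its call thus supports nothing, and its test is not given. IGHA1, that of IgA1, fell with 14 reads in KPT-330+CS and 81 in CS (-2.43 ± 0.48, adjusted p = 0.000909). IGHM, the constant gene of IgM, averaged 1220 CPM in KPT-330 and 816 CPM in DMSO (0.58 ± 0.28, adjusted p = 0.102). IGHD, that of IgD, fell to 6.71 CPM in KPT-330+CS, against 17.2 CPM in CS (-1.36 ± 0.20, adjusted p = 7.99e-05).

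Of the pre-B receptor and recombination genes, 8 of 10 were tested, and RAG2 and DNTT were not. In KPT-330 against DMSO, 4 were higher and 1 lower, beside 24.7% and 23.8% of all tested genes. VPREB3, a relative of VPREB1, rose to 46.9 CPM in KPT-330, against 24.1 CPM in DMSO (0.96 ± 0.28, adjusted p = 0.0134), a call lost without DMSO replicate 3 (0.71, adjusted p = 0.0845), with no filter (adjusted p = 0.0938) and without the libraries of lowest GC slope (adjusted p = 0.0696). Adding KPT-330 to CS left 0 higher (0 also at an unadjusted p under 0.05 and with DESeq2) and 2 lower, beside 26.1% and 21.7% of all tested genes. VPREB1 stood at 0.23 ± 0.20 (adjusted p = 0.383). RAG1, a recombinase gene, had 0.655 CPM in KPT-330+CS, 0.376 CPM in KPT-330, 0.389 CPM in CS and 0.411 CPM in DMSO and was called in neither KPT-330 comparison.

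Several transcription factors that act at light chain enhancers in B cells were on a list of 16, all tested. In KPT-330 against DMSO, 7 were higher and 5 lower, beside 24.7% and 23.8% of all tested genes. TCF3, which encodes the E proteins E12 and E47, rose by 0.64 ± 0.18 (adjusted p = 0.0106; 0.49 and adjusted p = 0.078 without DMSO replicate 3; adjusted p = 0.0778 with no filter; 0.13 and still called when corrected for GC over all libraries), and POU2AF1, a B cell coactivator gene, by 0.57 ± 0.04 (adjusted p = 4.68e-07). With both drugs against CS, 3 were higher and 7 lower, beside 26.1% and 21.7% of all tested genes. SPIB, which encodes an ETS factor related to PU.1, fell to 38.8 CPM in KPT-330+CS, against 117 CPM in CS (-1.60 ± 0.09, adjusted p = 1.79e-08), POU2F2 fell by 0.69 ± 0.08 (adjusted p = 1.09e-05) and IKZF3 fell by 0.60 ± 0.05 (adjusted p = 5.88e-07). BCL6, a germinal centre repressor gene, rose by 0.96 ± 0.20 (adjusted p = 0.00115). In CS against DMSO 3 were higher and 1 lower, beside 8.88% of all tested genes called. The gene lower there was IRF4, which with PU.1 or SPI-B binds light chain enhancers, at -0.30 ± 0.05 (adjusted p = 0.00396), a call lost with only these groups in the fit (-0.27, adjusted p = 0.0976). The genes higher in CS against DMSO were POU2F2 at 0.35 (adjusted p = 0.0158), BACH2 at 0.34 (adjusted p = 0.00168) and POU2AF1 at 0.24 (adjusted p = 0.00585). POU2F2 lost this call in 3 of 22 alternatives and POU2AF1 in 1. Any part of these factors in the lambda counts was not tested.

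The tested protein-coding neighbours within 500 kb of the J and C cluster were ZNF280B, PRAME, GNAZ, RAB36 and BCR. Of these 5, in KPT-330+CS against CS, 2 were higher, RAB36 at 2.23 ± 0.29 (adjusted p = 3.31e-05) and BCR at 1.06 ± 0.15 (adjusted p = 8.36e-05), and ZNF280B was lower at -0.67 ± 0.12 (adjusted p = 0.000568). In CS against DMSO 0 of the 5 were called by edgeR and 0 with DESeq2, and 1 (BCR) had an unadjusted p under 0.05, with log2 fold changes between -0.09 and 0.37. In KPT-330 against DMSO, ZNF280B was lower (-0.72 ± 0.12, adjusted p = 0.000348) and 3 were higher, among them BCR, with 27.4 CPM in KPT-330 and 10.6 CPM in DMSO (1.36 ± 0.16, adjusted p = 1.27e-05). Of all tested genes 48.5% were called in this comparison, 47.8% in KPT-330+CS against CS and 8.88% in CS against DMSO.

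The lambda variable row with most reads was high with KPT-330. IGLV6-57 (22195713 to 22196460 of chromosome 22) had 16.4, 14 and 13.6 CPM in KPT-330+CS, 13.1, 11.3 and 13.5 CPM in KPT-330, 4.85, 5.6 and 5.46 CPM in CS, and 6.14, 5.94 and 3.59 CPM in DMSO. Both groups with KPT-330 lay above both without it, and CS overlapped DMSO, unlike IGLC1. IGLV5-52 had 4.18, 3.08, 4.13 and 3.63 CPM on average in KPT-330+CS, KPT-330, CS and DMSO. In the same order of groups IGLV1-44 had 1.21, 1.47, 1.66 and 1.27 CPM, and IGLV1-47 had 0.881, 1.46, 1.19 and 1.31 CPM. IGLVI-56 had 3.17, 2.6, 0.971 and 0.944 CPM, and IGLVIVOR22-1 had 1.81, 1.07, 0.488 and 0.477 CPM.

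The genes outside the locus whose log2 CPM followed IGLL5 most closely over the 12 libraries were STK19, HIST1H1C, SUGP1, AFAP1 (Pearson's r of 0.98 each), SMG6 and DDRGK1 (0.97 each). For IGLC1, a choice added after the values were seen, they were FGR (0.99), RNF121, HIST1H2BJ and CMSS1 (0.98 each), CD27 and CSNK2B (0.96 each). The points share 4 groups and their library scaling, so these values are a description.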

How the data were processed

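Gene counts of 12 JEKO-1 libraries were used. Per the series design text and the labels' protocols, RNA was isolated with a kit for fixed tissue, TruSeq V2 poly(A) libraries were sequenced on an Illumina instrument, and the authors aligned reads to hg38 with STAR and deposited raw counts on Ensembl 78 genes. The counting program, its strand setting and treatment of shared reads, and all tool versions were not stated.

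The deposited counts went into edgeR 4.0.16 under R 4.3.3 (filterByExpr by group, TMM, robust quasi-likelihood F-test, two-sided), with all 12 libraries in 1 fit, group as the only term and 8 residual degrees of freedom. A gene was called when its p, adjusted by Benjamini-Hochberg over 19460 tested genes, was at most 0.05. As SE, the size of the log2 fold change over the root of F was used. The fit was tested on simulated data. Library totals were 35325563 to 59490178 counts. Libraries of a group differed by more than sampling noise (chi-square per degree of freedom of 2.269 to 55.18). The spread was unequal between groups. The coefficient of variation beyond sampling noise was 10.9% in KPT-330+CS, 2.87% in KPT-330, 11.9% in CS and 15.5% in DMSO. The fit used a spread shared by all groups.

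The genes and lists were chosen with earlier results of these data known. Every member is named. From other lists up to 4 called genes by size of change were named and up to 2 others of high level. The protein-coding neighbours of at least 1 CPM within 500 kb and the 6 genes most like IGLL5 were also named. Outside these rules, the 6 lambda variable rows that reached 1 CPM in a library were named, which lie beyond that distance. RAG1, IGHM, IRF4 and VPREB1 with CS were also named outside these rules, after their values were seen. GC content, coordinates and sequences came from hg38 and GENCODE 44, in which 87.3% of the identifiers were found on the same chromosome. Log2 CPM for likeness used a prior count of 2. Alternatives were no or a stricter filter (1 CPM in 3 libraries), DESeq2 size factors, library size alone, DESeq2 1.42.0, the compared groups alone, a replicate block, each library left out, no lowest-GC-slope libraries, lambda rows summed, and, added after the data were seen, GC correction within groups or over all libraries. Figures were drawn with matplotlib 3.10.9.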

Additional observations from a re-analysis of the deposited data

Results flagged for a closer look

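IGLC7 moved in opposite directions with KPT-330 depending on salicylate. Its log2 fold change was 1.21 in KPT-330 against DMSO, where each KPT-330 library lay above each DMSO library, and -1.67 in KPT-330+CS against CS, where each library with both drugs lay below each CS library. The difference between these effects was not tested. The libraries of these groups also entered the salicylate comparisons by which the gene had been picked. High values with KPT-330 alone and low values with both drugs favoured that choice, so neither fold change is independent of it.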

How the results depend on the processing

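The count of the 9 genes called in KPT-330 against DMSO was 4. Leaving out single libraries gave 3 to 8, with 8 without DMSO replicate 1, and GC correction within groups also gave 8 (58.7% of all genes were called then). In KPT-330+CS against CS the count was 6, and 6 to 6 with single libraries left out. It was 5 and 6 with DESeq2 in the order of these comparisons, and 5 and 5 with only the groups compared. IGLL1 did not pass the filter on low counts with only KPT-330+CS and CS in the fit. With a replicate block 4 and 6 were called. Same-numbered libraries did not correlate positively, with values between -0.37 and -0.01 in these comparisons. The values were centred within each group and also carry the GC slope of the libraries. They therefore do not show whether the samples were paired by number.

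Signs turned in KPT-330 against DMSO with GC correction over all libraries for IGLJ1 (-0.17), IGLJ2 (-0.05), IGLC2 (-0.01) and IGLJ3 (0.00), where the correction itself removes any part of the difference that follows GC content. IGLL5 turned to -0.02 in KPT-330+CS against CS without CS replicate 1, and leaving out single libraries gave it -0.02 to 0.25. IGLC1 in KPT-330 against DMSO was not called with no filter (adjusted p = 0.124). IGLL1, with 3 reads in DMSO and 1 in CS, stood at 7.50 without DMSO replicate 1 and at 5.70 without CS replicate 1, fitted against 0 reads. The lambda rows summed into 1 gave 0.60 ± 0.18 (adjusted p = 0.0135) and -0.13 ± 0.18 (adjusted p = 0.598) and no count of members. Scaling by library size alone moved the median of all genes in KPT-330 against DMSO to 0.20, from 0.04, with 6651 genes higher and 2905 lower instead of 4815 and 4631. The 5 genes called lower in KPT-330+CS against CS kept that call in all 22 alternatives run.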
